A study of Mus musculus with 10 samples.

Results

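The genes of lysosomal hydrolases, their activators and the membrane proteins of the lysosome were examined in OP9 stromal cells. The list holds 43 genes picked by symbol, of 26888 genes in the deposited expression table. Of these, 42 were found under their current symbol and *Tfeb* was found under its older symbol *Tcfeb*. Levels are in RPM, the reads on a gene scaled so that the reads on genes of a library sum to 1000000. A level above 0.5 RPM in at least 1 library was reached by 42 of the 43 members and by 16933 genes in all, and these were tested. The remaining member, *Ctss*, which encodes cathepsin S, was at most at 0.257 RPM, below the value of 3 reads in every library, and no fold change was computed for it.

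OP9 is a line of stromal cells from calvaria (fetal by the sample labels, newborn by the text of the study) of the strain (C57BL/6xC3H)F2-op/op, in which the op mutation leaves mice without functional colony stimulating factor 1, and it is used as a surrogate niche for hematopoietic stem cells. Libraries came from 6 reaggregates and from 4 submersed flat cultures, which allows the effect of the form of culture to be examined. For reaggregation, cells were dispersed with trypsin, pelleted and kept at the liquid-gas interface on a filter for 48 h, 3 reaggregates without IL-3 (numbers 1, 3 and 5) and 3 with IL-3 (numbers 2, 4 and 6) at a dose given in the methods as 200 µg/µl. The label of flat cultures 2 and 4 names the de Bruijn lab, whereas flat cultures 1 and 3 carried no label of source and nor did the reaggregates. The methods name the Medvinsky group as the other keeper of the cells in flat culture, without saying which libraries these were. They also name passage number as a source of variance, and the labels do not give it. Reaggregates were dissociated with collagenase and dispase before RNA was extracted, and this step cannot be told apart from the culture condition.

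Lysosomes are acidic organelles in which proteases, glycosidases, sulfatases and lipases break down material delivered by endocytosis, phagocytosis and autophagy. Most of the soluble enzymes are made in the endoplasmic reticulum and are carried to the lysosome by receptors for mannose 6-phosphate, while heavily glycosylated membrane proteins line the limiting membrane. The transcription factor TFEB is known to bind the sequence CACGTG and its longer forms near many lysosomal genes and to leave the cytoplasm for the nucleus when the kinase complex mTORC1 is inactive.

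Taking the commonest RPM value above 0 as 1 read, reaggregates had 7.35 M to 9.43 M reads on genes and the 4 flat cultures 8.26 M to 8.7 M, the medians being 8.49 M and 8.37 M. The floor, set at 3 reads, lay between 0.318 and 0.408 RPM and accounts for counting error alone. Consecutive reaggregates (1 and 2, 3 and 4, 5 and 6), of which 1 received IL-3 in each case, were close to each other. Among the members the median absolute difference between such reaggregates was between 0.051 and 0.078 on the log2 scale, against 0.175 to 0.287 for the 12 other pairs of reaggregates. The labels do not say whether consecutive reaggregates are separate cultures, and p-values measure the spread between these samples, part of which may be technical.

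Lysosomal genes were on the whole higher after reaggregation. When 6 reaggregates were set against 4 flat cultures, 14 of the 42 members tested rose by 2 criteria, a fold change no smaller than 2 and an adjusted p no larger than 0.05 (limma on log2(RPM + 0.5), Benjamini-Hochberg), where 7.32% of all genes tested did. None of the members fell by these criteria, and 6.53% of all genes did. By the adjusted p alone, 21 members were higher in reaggregates, against 13.6% of all genes, and 1 was lower, against 15.7% of all genes. The median log2 fold change was 0.57 over the 42 members and 0.04 over all 16933 genes, and 35 members were above 0. For 17 of the 42 members tested every reaggregate was above every flat culture, which held for 7.8% of all genes tested, and for 0 members was every reaggregate below every flat culture, which held for 11.4%. With each pair of consecutive reaggregates averaged, 9 members rose by both criteria, against 1.84% of all genes. *Ctsb*, *Man2b1*, *Tpp1*, *Mcoln1* and *Sgsh* then no longer passed, with adjusted p between 0.0561 and 0.117, nor did any member that was higher by the adjusted p alone. Without flat culture 4, 14 members were higher by the adjusted p alone, against 7.49% of all genes. Fold changes on this scale understate the change of genes with low RPM, and in bulk RNA fewer cells that express a gene and less of its RNA per cell cannot be told apart. Summed over the members, reads made up between 1.47% and 1.68% of all reads on genes in reaggregates, whereas in flat cultures 1 to 4 they made up 0.808%, 1.44%, 0.824% and 1.03%.

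**Figure D1:**
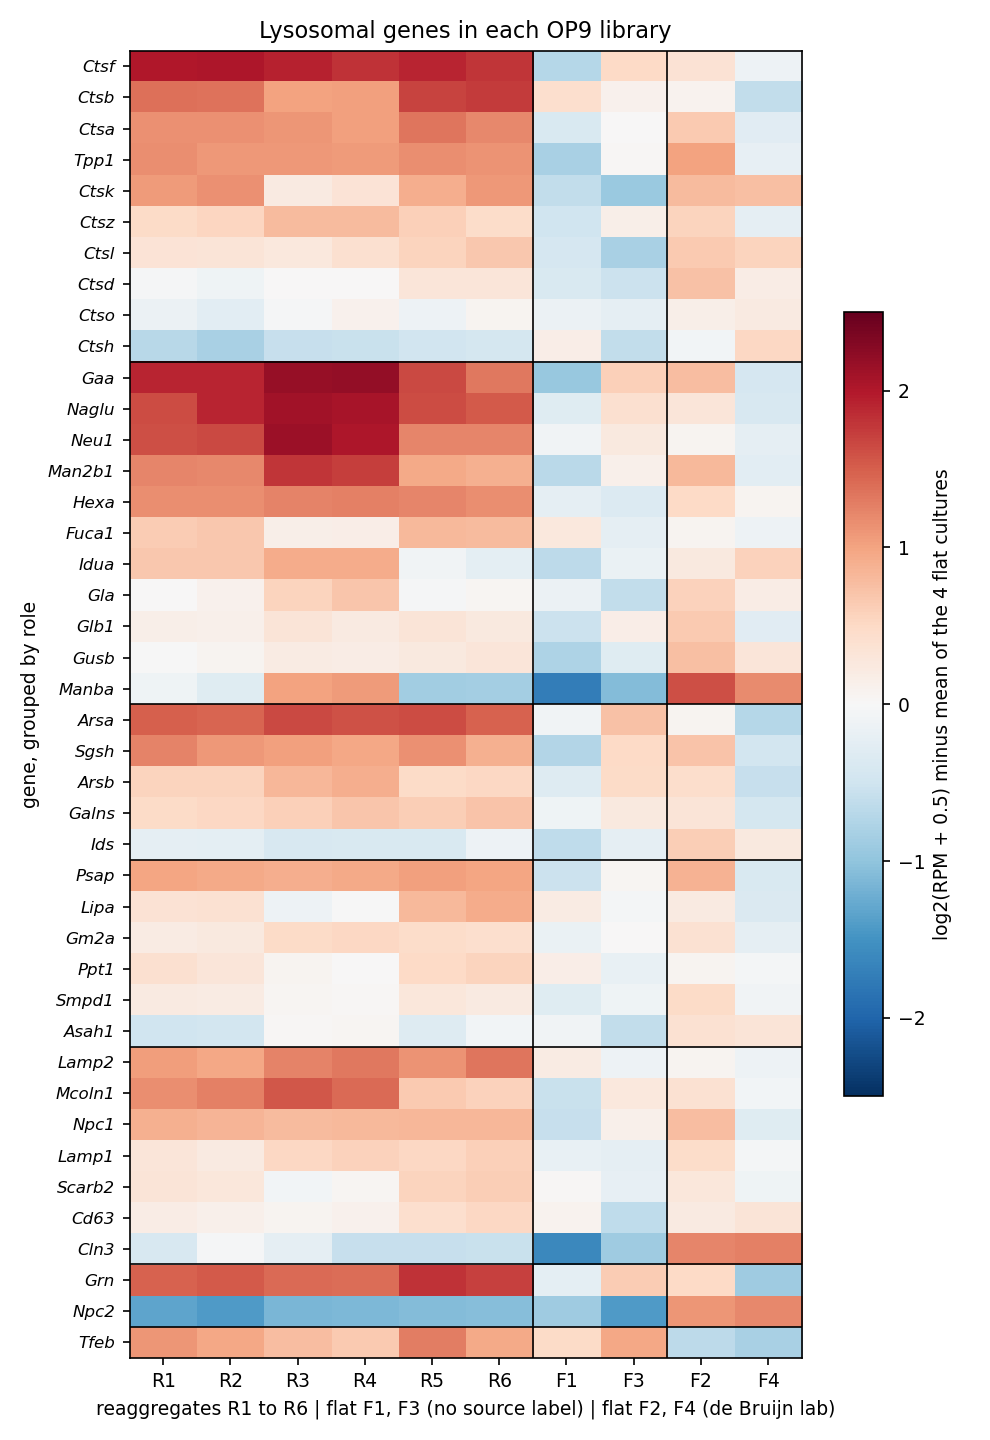
Heat map of log2(RPM + 0.5) of 42 lysosomal genes (vertical axis, grouped by role and ordered by change) in 10 OP9 libraries (horizontal axis), shown as the difference from the mean of the 4 flat cultures. Reaggregates are red for the upper genes of most groups, while *Manba*, *Cln3* and *Npc2* are red in flat cultures 2 and 4.

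Proteases made up 11 of the members, 10 cathepsins and the tripeptidyl peptidase TPP1. Of the 10 tested, 4 rose by both criteria, and by the adjusted p alone 5 were higher and 1 was lower. Of all genes tested, 7.32% rose by both criteria, and by the adjusted p alone 13.6% were higher and 15.7% lower. The cysteine protease cathepsin F, encoded by *Ctsf* (ENSMUSG00000083282, NCBIM37 chr19:4855129-4860912), was between 39.4 and 46.8 RPM with a median of 43.2 RPM in the 6 reaggregates and was at 6.56, 14.4, 15.8 and 10.1 RPM in flat cultures 1 to 4. All reaggregates lay far above all flat cultures and close to each other. Its log2 fold change of 1.91 (SE 0.218, adjusted p = 0.000231) was the largest among the members with all libraries kept. Without flat culture 2 that of *Gaa* was larger (2.12 against 2.03). *Ctsb* (cathepsin B), a cysteine protease with both endopeptidase and exopeptidase activity, was between 2120 and 3520 RPM with a median of 2715 RPM in reaggregates, and was at 1410, 1120, 1130 and 687 RPM in flat cultures 1 to 4. Reaggregates 5 and 6 were highest and 3 and 4 lowest, without overlap with flat cultures, and the log2 fold change was 1.37 (SE 0.246, adjusted p = 0.00286). *Ctsa* encodes a serine carboxypeptidase that also protects neuraminidase and beta-galactosidase in a complex, and was between 462 and 569 RPM with a median of 500 RPM in reaggregates and at 174, 354, 227 and 185 RPM in flat cultures. Flat culture 2 came nearest to the reaggregates but stayed below them, and the log2 fold change was 1.16 (SE 0.191, adjusted p = 0.00167). TPP1 removes tripeptides from the amino ends of proteins. Its gene was between 283 and 303 RPM with a median of 290 RPM in reaggregates and at 76.4, 270, 137 and 116 RPM in flat cultures. Flat culture 2 nearly reached the reaggregates, and the log2 fold change was 1.11 (SE 0.268, adjusted p = 0.0111). *Ctsz* (cathepsin Z), a carboxypeptidase, was between 376 and 474 RPM with a median of 407 RPM in reaggregates and at 194, 405, 304 and 236 RPM in flat cultures. Flat culture 2 lay among the reaggregates, and the log2 fold change was 0.61 (SE 0.195, adjusted p = 0.0363). It no longer passed without flat culture 1 or 4 or without any of reaggregates 1 to 5, with adjusted p between 0.0556 and 0.106.

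For several other proteases no difference passed the test. The aspartic protease cathepsin D, a standard marker of lysosomal content, was encoded by a gene (*Ctsd*) between 837 and 1110 RPM with a median of 903 RPM in reaggregates and at 692, 1490, 614 and 1020 RPM in flat cultures. Flat cultures lay on both sides of the reaggregates, with those of the de Bruijn lab at the upper end, and the log2 fold change was 0.08 (SE 0.240, adjusted p = 0.813), which became −0.04 without flat culture 1 and −0.10 without flat culture 3. *Ctsk* encodes the collagen-degrading cathepsin K, best known from osteoclasts, and was between 16.2 and 30.8 RPM with a median of 27.6 RPM in reaggregates and at 8.75, 24.2, 6.95 and 23.6 RPM in flat cultures. Flat cultures 1 and 3 were below every reaggregate, flat cultures 2 and 4 were among them, and the log2 fold change of 0.79 did not pass the test (SE 0.364, adjusted p = 0.118). It passed only in the limma fit with both flat sources weighted equally (adjusted p = 0.0127). *Ctsl* (cathepsin L) was between 368 and 484 RPM in reaggregates and between 174 and 481 RPM in flat cultures, and *Ctso* (cathepsin O) between 15.5 and 20.1 and between 15.9 and 21.9 RPM, and neither passed the test. *Ctsh*, which encodes the aminopeptidase cathepsin H, was the only member lower in reaggregates by the adjusted p and was chosen after its values were seen. It was between 66.6 and 86.0 RPM with a median of 78.5 RPM in reaggregates and at 131, 111, 75.9 and 168 RPM in flat cultures, so that flat culture 3 lay among the reaggregates, and the log2 fold change was −0.59 (SE 0.194, adjusted p = 0.0398). It no longer passed without flat culture 1, 2 or 4 or without any of reaggregates 1 to 5, with adjusted p between 0.0531 and 0.126.

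Glycosidases remove sugars from glycoproteins, glycolipids and glycosaminoglycans. Of the 11 members of this kind, 5 rose by both criteria, 6 were higher by the adjusted p alone, and none was lower. The shares of all genes tested were 7.32%, 13.6% and 15.7%. *Gaa* (ENSMUSG00000025579, chr11:119129201-119146768), the acid alpha-glucosidase that degrades glycogen, was between 333 and 613 RPM with a median of 499 RPM in reaggregates and at 68.7, 228, 202 and 98.8 RPM in flat cultures 1 to 4. Reaggregates 3 and 4 were highest and 5 and 6 lowest, with all of them above the flat cultures, and the log2 fold change was 1.86 (SE 0.322, adjusted p = 0.00236). *Naglu* (ENSMUSG00000001751, chr11:100931326-100938986) encodes the alpha-N-acetylglucosaminidase of heparan sulfate breakdown and was between 111 and 165 RPM with a median of 131 RPM in reaggregates and at 30.8, 47.3, 50.1 and 28.5 RPM in flat cultures. The groups were well apart, and the log2 fold change was 1.81 (SE 0.197, adjusted p = 0.000175). *Neu1* (ENSMUSG00000007038, chr17:35068198-35072898), the lysosomal neuraminidase, was between 51.1 and 97.8 RPM with a median of 68.65 RPM in reaggregates and at 20.5, 22.9, 25.7 and 18.5 RPM in flat cultures. Flat cultures of both sources were alike and low, reaggregates 3 and 4 were highest, and the log2 fold change was 1.65 (SE 0.206, adjusted p = 0.000359). *Man2b1*, the alpha-mannosidase of N-glycan breakdown, was between 111 and 205 RPM with a median of 138.5 RPM in reaggregates and at 37.3, 104, 65.4 and 49.1 RPM in flat cultures. The lowest reaggregate lay just above flat culture 2, and the log2 fold change was 1.30 (SE 0.279, adjusted p = 0.00666). *Hexa* encodes the alpha subunit of beta-hexosaminidase, which degrades GM2 ganglioside, and was between 317 and 341 RPM with a median of 326 RPM in reaggregates and at 122, 200, 112 and 148 RPM in flat cultures. Reaggregates were nearly equal and well above the flat cultures, with a log2 fold change of 1.2 (SE 0.160, adjusted p = 0.000526).

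Of the remaining glycosidases, only *Fuca1* passed the adjusted p. *Fuca1*, the alpha-fucosidase, was chosen after its values were seen. It was between 92.7 and 147 RPM with a median of 132 RPM in reaggregates and at 101, 88.5, 72.1 and 76.8 RPM in flat cultures. Flat culture 1 lay among the reaggregates, and the log2 fold change was 0.53 (SE 0.176, adjusted p = 0.0401). It no longer passed without flat culture 2, 3 or 4 or without reaggregate 1, 2, 5 or 6, with adjusted p between 0.0623 and 0.107. *Gusb*, the beta-glucuronidase often used as a reference gene, was between 78.8 and 97.3 RPM with a median of 90.5 RPM in reaggregates and at 46.2, 134, 64.1 and 97.4 RPM in flat cultures. Flat cultures 1 and 3 were below all reaggregates, flat culture 2 was above them and flat culture 4 was level with the highest. The log2 fold change of 0.17 did not pass the test (SE 0.246, adjusted p = 0.616), and it was −0.09 without flat culture 1. *Manba*, the beta-mannosidase of the last step of N-glycan breakdown, was between 6.88 and 27.6 RPM with a median of 11.25 RPM in reaggregates and at 3.59, 40.9, 5.87 and 30.3 RPM in flat cultures. Flat cultures 2 and 4 were above all reaggregates and flat cultures 1 and 3 below all of them, and the log2 fold change against all flat cultures was −0.01 (adjusted p = 0.992). *Idua*, *Gla* and *Glb1*, which encode alpha-L-iduronidase, alpha-galactosidase A and beta-galactosidase, overlapped between the groups and none of them passed the test. They were between 13.2 and 30.3, 53.2 and 88.6, and 71.6 and 81.7 RPM in reaggregates and between 9.83 and 23.5, 35.3 and 81.7, and 45.2 and 103 RPM in flat cultures.

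Sulfatases remove sulfate groups from glycosaminoglycans and sulfolipids. By the adjusted p, 4 of the 5 were higher in reaggregates and 2 of these rose by both criteria. The shares of all genes tested were 13.6% and 7.32%. *Arsa* (arylsulfatase A), which acts on sulfatide, was between 183 and 210 RPM with a median of 195.5 RPM in reaggregates and at 62.6, 70.1, 111 and 40.3 RPM in flat cultures 1 to 4. All reaggregates were high and the groups were apart, with a log2 fold change of 1.55 (SE 0.222, adjusted p = 0.000803). *Sgsh* encodes the sulfamidase of heparan sulfate breakdown and was between 48.7 and 62.0 RPM with a median of 54.6 RPM in reaggregates and at 15.5, 42.9, 37.0 and 18.8 RPM in flat cultures. No flat culture reached the reaggregates, and the log2 fold change was 1.05 (SE 0.261, adjusted p = 0.0123). *Galns*, which acts on keratan sulfate and chondroitin sulfate, was between 32.1 and 38.0 RPM with a median of 35.1 RPM in reaggregates and at 21.1, 28.6, 27.1 and 16.8 RPM in flat cultures. The groups did not overlap, and the log2 fold change was 0.60 (SE 0.165, adjusted p = 0.0192). Without flat culture 4 the adjusted p was 0.0575. *Arsb* (arylsulfatase B), which acts on dermatan sulfate, was between 110 and 150 RPM with a median of 116 RPM in reaggregates and at 63.0, 107, 110 and 53.0 RPM in flat cultures. The highest flat culture was level with the lowest reaggregate, and the log2 fold change was 0.64 (SE 0.216, adjusted p = 0.0444). It no longer passed without flat culture 1 or 4 or without any 1 of the reaggregates, with adjusted p between 0.054 and 0.142. *Ids*, the iduronate-2-sulfatase, was between 72.1 and 88.2 RPM in reaggregates and between 61.2 and 148 RPM in flat cultures, and did not pass the test. In the annotation, 45.3% of the exon bases of *Arsb*, 21.6% of those of *Sgsh* and 18.8% of those of *Arsa* are shared with another gene, so that reads there may stem from either. The same holds for 17.4% of the exon bases of *Ctsa* and 16.2% of those of *Ctsb*, and 13 of the 43 members share exon bases at all.

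Among 6 genes of lipid hydrolases and their activators, 1 was higher by the adjusted p and none rose by both criteria. The shares of all genes tested were 13.6% and 7.32%, and a count of 1 in 6 is near the first of these. *Psap* encodes prosaposin, the precursor of 4 saposins that present sphingolipids to their hydrolases, and was between 2940 and 3180 RPM with a median of 3050 RPM in reaggregates and at 1080, 2830, 1610 and 1200 RPM in flat cultures 1 to 4. Reaggregates were nearly equal and flat culture 2 came close to them, and the log2 fold change was 0.97 (SE 0.259, adjusted p = 0.0175). Without flat culture 4 the adjusted p was 0.0601. *Lipa* (acid lipase), *Gm2a* (GM2 activator), *Ppt1* (palmitoyl protein thioesterase), *Smpd1* (acid sphingomyelinase) and *Asah1* (acid ceramidase) overlapped between the groups, with log2 fold changes between −0.21 for *Asah1* and 0.39 for *Lipa*, and none of them passed the test.

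Of 7 membrane proteins, 2 rose by both criteria and 3 were higher by the adjusted p. The shares of all genes tested were 7.32% and 13.6%. *Lamp2* (ENSMUSG00000016534, chrX:35754534-35809631), which encodes a major glycoprotein of the limiting membrane with a part in chaperone-mediated autophagy, was between 1050 and 1350 RPM with a median of 1215 RPM in reaggregates and at 612, 558, 486 and 491 RPM in flat cultures 1 to 4. The groups were far apart and flat cultures of both sources were alike, with a log2 fold change of 1.17 (SE 0.149, adjusted p = 0.000394). *Mcoln1* encodes the calcium channel mucolipin 1 and was between 56.3 and 111 RPM with a median of 87.05 RPM in reaggregates and at 25.3, 48.8, 45.0 and 35.5 RPM in flat cultures. Reaggregates 5 and 6 were lowest but remained above the flat cultures, and the log2 fold change was 1.10 (SE 0.241, adjusted p = 0.00728). *Npc1*, which carries cholesterol out of the lysosome, was between 65.6 and 70.5 RPM with a median of 67.45 RPM in reaggregates and at 25.1, 65, 41.1 and 30.4 RPM in flat cultures. Flat culture 2 was just below the lowest reaggregate, and the log2 fold change was 0.83 (SE 0.220, adjusted p = 0.0167). Without flat culture 4 the adjusted p was 0.0601. *Lamp1*, the other main glycoprotein of the limiting membrane, was between 994 and 1280 RPM with a median of 1215 RPM in reaggregates and at 750, 1160, 729 and 817 RPM in flat cultures. Flat culture 2 lay among the reaggregates, and the log2 fold change of 0.46 did not pass the test (SE 0.177, adjusted p = 0.0713), whereas without flat culture 2 it was 0.61 (adjusted p = 0.0232). *Lamp1* also passed with both flat sources weighted equally and with quantile normalization. *Cln3*, a membrane protein mutated in juvenile Batten disease, was between 1.46 and 2.37 RPM with a median of 1.595 RPM in reaggregates and at 0.460, 6.32, 1.07 and 6.52 RPM in flat cultures. Flat cultures 2 and 4 were high and flat cultures 1 and 3 low, and the log2 fold change was −0.39 (adjusted p = 0.583). *Scarb2*, the receptor that carries glucocerebrosidase, was between 63.7 and 103 RPM in reaggregates and between 58 and 82.0 RPM in flat cultures, and the tetraspanin gene *Cd63* between 453 and 618 and between 280 and 540 RPM, and neither passed the test.

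Both other soluble proteins were expressed at high levels, and only *Grn* passed the test. *Grn*, which encodes progranulin, a glycoprotein cleaved to granulins in the lysosome, was between 521 and 691 RPM with a median of 560.5 RPM in reaggregates and at 166, 278, 303 and 106 RPM in flat cultures 1 to 4. All reaggregates were above all flat cultures, and the log2 fold change was 1.56 (SE 0.264, adjusted p = 0.00201). *Npc2*, which encodes a soluble cholesterol-binding protein that works with NPC1, was between 415 and 530 RPM with a median of 500.5 RPM in reaggregates and at 593, 2370, 413 and 2540 RPM in flat cultures. Flat cultures 2 and 4 stood far above the rest, flat culture 1 was somewhat above the reaggregates and flat culture 3 just below them, and the log2 fold change of −1.19 did not pass the test (SE 0.462, adjusted p = 0.0713).

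*Tfeb* (ENSMUSG00000023990, chr17:47873979-47929368) was between 13.7 and 21.2 RPM with a median of 16.9 RPM in reaggregates and at 12.1, 5.25, 17.1 and 4.62 RPM in flat cultures 1 to 4. Flat cultures of the de Bruijn lab were low and those with no source label were at or near the level of the reaggregates. The log2 fold change was 0.95 (SE 0.328, adjusted p = 0.0481). It no longer passed without flat culture 2 or 4 or without any 1 of the reaggregates, with adjusted p between 0.0632 and 0.154. Since TFEB is controlled mainly through its place in the cell, its RNA level does not measure its activity.

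**Figure D2:**
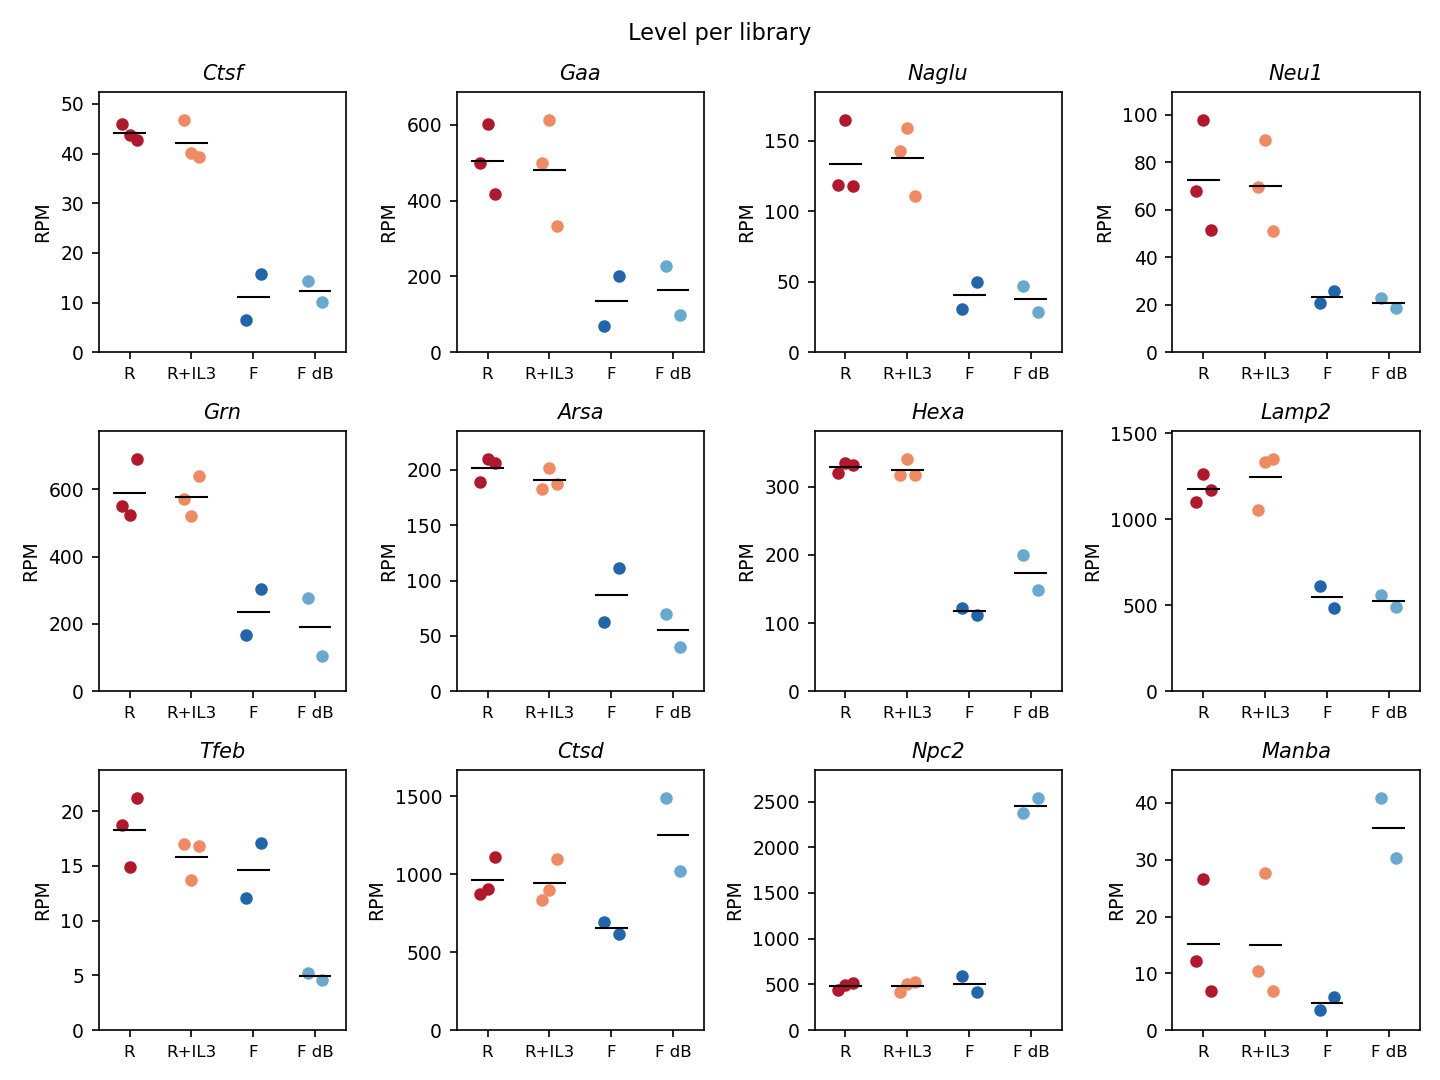
RPM (vertical axis, from 0) of 12 lysosomal genes in reaggregates without IL-3 (R), reaggregates with IL-3 (R+IL3), flat cultures with no source label (F) and flat cultures of the de Bruijn lab (F dB), where each point is 1 library and each line a group mean. *Ctsf*, *Gaa*, *Naglu*, *Neu1*, *Grn*, *Arsa*, *Hexa* and *Lamp2* are above every flat culture in every reaggregate, whereas *Npc2* and *Manba* are highest in flat cultures of the de Bruijn lab.

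The sources of flat cultures were then taken apart, because these differed from each other. The reaggregates are the same in both of the following comparisons, which therefore share samples. Consecutive reaggregates counted as separate samples in both, and no fit with them averaged was run by source. Against the 2 flat cultures with no source label, 18 of 42 members rose by both criteria, against 3.7% of all genes tested, and 0 fell, against 6.17%. Without flat culture 1, 8 members rose, against 1.1% of all genes. The median log2 fold change was 0.82 over the members and −0.05 over all genes. Against the 2 de Bruijn lab flat cultures, 10 members rose, against 15.2% of all genes, and 2 fell, against 10.5%. Without flat culture 2, 19 members rose, against 12.6% of all genes. Here the median was 0.45 over the members and 0.13 over all genes. Leaving out flat culture 1 or 2 leaves 1 flat culture in its comparison, which is assumed to vary as much as the reaggregates. Under quantile normalization the median of all genes in this comparison moved from 0.13 to −0.02, and that between flat sources from −0.17 to 0.03.

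The 10 members with the largest change against all flat cultures are given against each source. *Ctsf* had log2 fold changes of 2.02 against flat cultures with no source label and 1.79 against those of the de Bruijn lab, *Gaa* 2.03 and 1.68, *Naglu* 1.76 and 1.86, *Neu1* 1.57 and 1.72, and *Grn* 1.37 and 1.75. *Arsa* had 1.23 and 1.87, *Ctsb* 1.1 and 1.63, *Man2b1* 1.56 and 1.03, *Hexa* 1.48 and 0.92, and *Lamp2* 1.14 and 1.2. Each passed both criteria in both comparisons apart from *Hexa*, whose fold change was below 2 against cultures of the de Bruijn lab (adjusted p = 0.000451). The values of *Arsa*, *Ctsb*, *Man2b1* and *Hexa* lay furthest apart among these, and the difference between flat sources did not pass the test for any of the 10, with adjusted p between 0.315 and 0.9375. The other members that rose by both criteria against all flat cultures were *Ctsa*, *Tpp1*, *Mcoln1* and *Sgsh*. Against cultures of the de Bruijn lab their log2 fold changes were 0.98, 0.72, 0.95 and 0.93, all below a fold change of 2. Against those with no source label they were 1.34, 1.51, 1.25 and 1.17. *Psap* and *Npc1* did not pass against cultures of the de Bruijn lab (limma adjusted p = 0.0613 and 0.0524). *Tfeb* rose by 1.68 against flat cultures of the de Bruijn lab (adjusted p = 0.00014) and had a log2 fold change of 0.22 against those with no source label (adjusted p = 0.486). For *Ctsk* the order was the other way, with 1.57 against those with no source label (adjusted p = 0.00751) and 0.01 against those of the de Bruijn lab (adjusted p = 0.969). The difference between flat sources itself did not pass the test for *Tfeb* (log2 fold change −1.46, adjusted p = 0.0884) or for *Ctsk* (1.56, adjusted p = 0.0574).

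Between flat cultures, 3 members were higher in cells of the de Bruijn lab by both criteria, where 1.82% of all genes were, and 0 were lower, where 3.87% of all genes were. These were *Manba* (log2 fold change 2.81, SE 0.388, adjusted p = 0.0212), *Cln3* (2.49, SE 0.388, adjusted p = 0.0297) and *Npc2* (2.31, SE 0.407, adjusted p = 0.0411). The median log2 fold change between flat sources was 0.37 over the 42 members and −0.17 over all genes. It was above 0 for 31 members and for 6674 of all 16933 genes. *Cln3* was higher by the adjusted p in reaggregates against flat cultures with no source label (log2 fold change 0.86, adjusted p = 0.0498), whereas *Npc2* had a log2 fold change of −0.04 there (adjusted p = 0.904). Both *Npc2* and *Cln3* fell in reaggregates against flat cultures of the de Bruijn lab, by 2.34 and 1.64 on the log2 scale (adjusted p = 2.83e-06 and 0.00041). *Manba* had a log2 fold change of −1.41 against the same cultures (adjusted p = 0.0512) and of 1.39 against those with no source label (adjusted p = 0.12). With any 1 of the 4 flat cultures left out, 1 source keeps a single library, so that such fits cannot decide whether these differences hold.

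**Figure D3:**
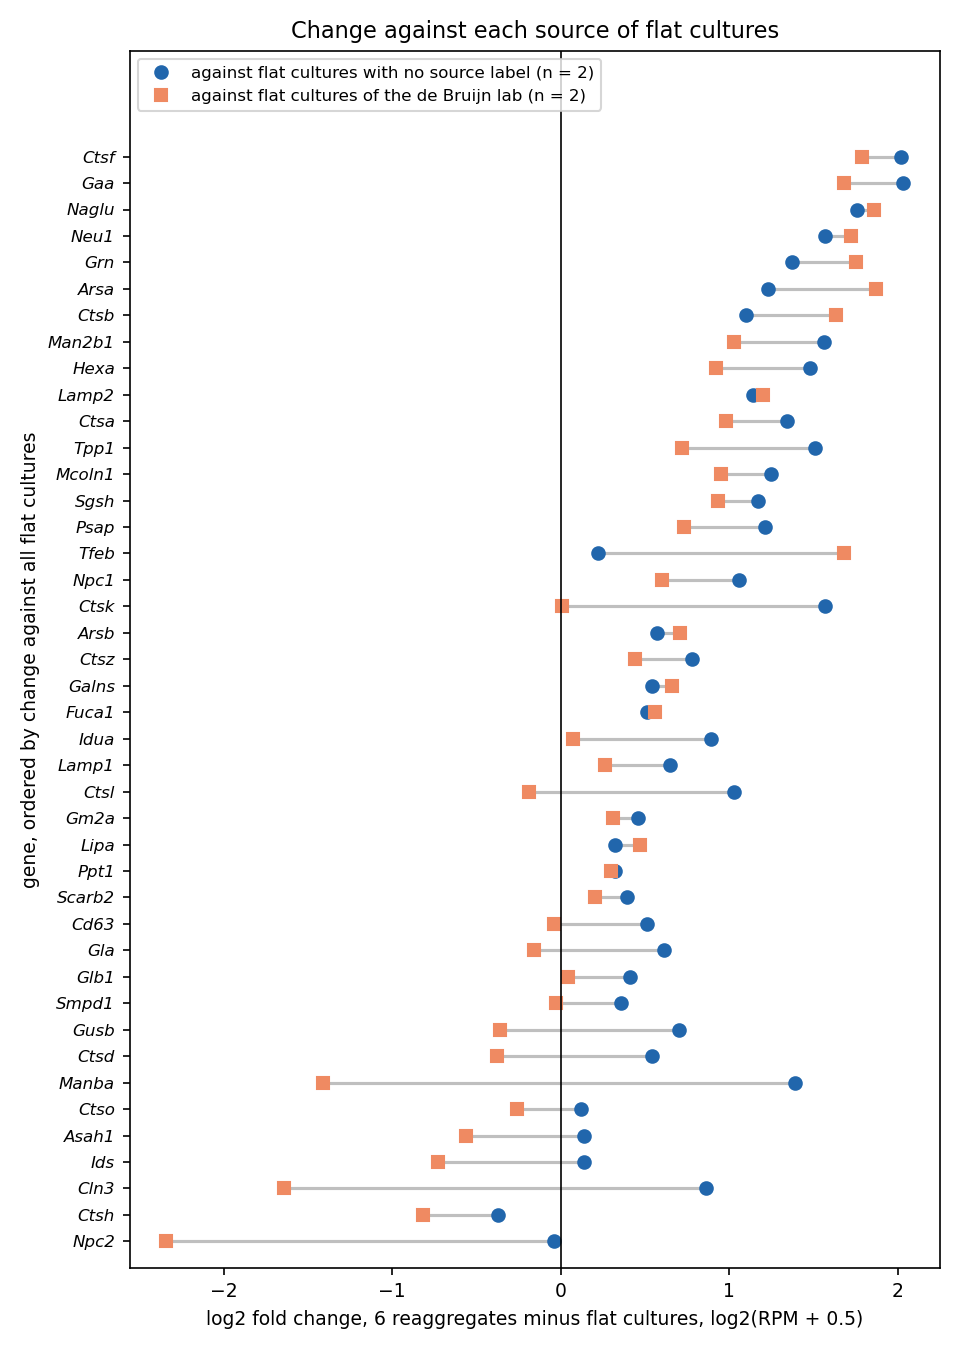
Log2 fold change (horizontal axis) of 42 lysosomal genes (vertical axis, ordered by change against all flat cultures) in 6 reaggregates against 2 flat cultures with no source label (circles) and against 2 flat cultures of the de Bruijn lab (squares). *Naglu*, *Neu1* and *Lamp2* have close values against both sources, *Arsa*, *Ctsb*, *Man2b1* and *Hexa* differ more, and *Npc2*, *Cln3*, *Manba*, *Tfeb* and *Ctsk* have values that lie far apart.

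The effect of IL-3 was compared within reaggregates. In 3 reaggregates with IL-3 against 3 without it, 0 of 42 members and 0% of all 16933 genes passed both criteria with limma. At an unadjusted p under 0.05, 0 members and 68 of all genes passed. With the pairs of consecutive reaggregates as a block in the limma fit, 0 members and 0 of all genes passed the adjusted p, and 1 member and 564 of all genes passed unadjusted. That member was *Sgsh*, chosen after its values were seen, with a log2 fold change of −0.16 (limma adjusted p = 0.982). In each of the 3 pairs 9 members, *Sgsh* among them, were lower with IL-3, as were 8.78% of all genes, and 5 were higher, as were 12.7% of all genes. Whether these shares differ was not tested. Without the block, the log2 fold changes of the members lay between −0.19 for *Tfeb* and 0.12 for *Ctsk*.

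Members differed in how far they varied. The coefficient of variation was larger among flat cultures than among reaggregates for 37 of 42 members, with medians of 35.3% and 11.3%. It was also larger among flat cultures for 79.5% of all genes with reads in both groups, with medians of 35.9% and 20.6%. The flat cultures come from different sources, whereas the reaggregates come as pairs that are much alike. Among reaggregates it was lowest for *Npc1* (2.49%), *Psap* (2.70%), *Tpp1* (2.83%) and *Hexa* (3.16%) and highest for *Manba* (63.2%) and *Idua* (32.3%). *Manba* and *Idua* were higher in reaggregates 3 and 4 than in 5 and 6, as were *Gaa*, *Neu1*, *Man2b1* and *Mcoln1*, whereas *Ctsb* and *Lipa* were higher in 5 and 6. These genes were picked after their values were seen. Per kilobase of annotated exon, *Psap* was the most abundant member in reaggregates at 1120 RPM per kb, followed by *Ctsb* at 583.6, *Lamp1* at 518.4, *Cd63* at 500.2 and *Ctsd* at 378.9 RPM per kb. *Tfeb*, at 3.01 RPM per kb in reaggregates, was among the least abundant members, with *Manba* at 2.17 RPM per kb and *Cln3* at 0.302 RPM per kb. *Ctss* was at 0.0673 RPM per kb, within the floor.

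Other genes of the lysosome were examined as lists, with group means over 6 reaggregates and 4 flat cultures. Here too consecutive reaggregates counted as separate samples. For comparison, 7.32% of all genes tested rose and 6.53% fell by both criteria, with a median log2 fold change of 0.04, and by the adjusted p alone 13.6% were higher and 15.7% lower. Among 24 further lysosomal enzymes, 5 rose and 1 fell, with a median of 0.38, and 9 were higher and 2 lower by the adjusted p alone. *Hyal1*, a hyaluronidase, was at 7.78 ± 3.89 RPM in the 4 flat cultures (mean and SD) and at 25.8 ± 9.80 RPM in the 6 reaggregates. *Dpp7*, a dipeptidyl peptidase, was at 29.5 ± 2.21 and 80.1 ± 11.85 RPM. *Hyal1* and *Dpp7* had log2 fold changes of 1.71 and 1.41. The groups overlapped for *Hyal1*, with reaggregate 6 at 11.1 RPM and flat culture 2 at 11.6 RPM. *Ctsc* (cathepsin C), which activates serine proteases of immune cells, was low, at 0.640 ± 0.627 RPM in reaggregates and 3.32 ± 1.76 RPM in flat cultures, and had a log2 fold change of −1.83. Of the 24, 10 were higher and 0 lower by the adjusted p alone against flat cultures with no source label. Against those of the de Bruijn lab 8 were higher and 4 lower, where 25.3% of all genes were higher and 21.6% lower. Among 17 further membrane proteins, with a median of 0.49, 7 were higher and 0 lower by the adjusted p alone. By both criteria 3 rose and 0 fell, the lipid transporter gene *Abca2* (log2 fold change 2.44, from 21.2 ± 20.4 to 86.9 ± 20.7 RPM), the cystine transporter gene *Ctns* (1.79, from 20.6 ± 7.86 to 68.6 ± 5.53 RPM) and the chloride-proton exchanger gene *Clcn7* (1.13, from 70.6 ± 25.9 to 147.8 ± 20.3 RPM). For *Abca2* the log2 fold change was 1.41 against flat cultures with no source label and 3.46 against those of the de Bruijn lab. Of the 17, 6 were higher and 0 lower by the adjusted p alone against the first source. Against the second 6 were higher and 3 lower. Of 16 subunits of the proton pump that acidifies lysosomes, the V-ATPase, 1 rose and 0 fell by both criteria, and 5 were higher and 0 lower by the adjusted p alone, with a median log2 fold change of 0.29. The gene was *Atp6v0a1*, at 287 ± 49.9 RPM in reaggregates and 137.5 ± 63.75 RPM in flat cultures (log2 fold change 1.17). By the adjusted p alone, 7 subunits were higher and 0 lower against flat cultures with no source label, where 6.6% of all genes were higher and 11.2% lower. Against those of the de Bruijn lab 4 were higher and 4 lower, where 25.3% of all genes were higher and 21.6% lower.

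Of 10 genes for the sorting and activation of lysosomal enzymes, 3 rose and 0 fell by either rule, with a median log2 fold change of 0.44. For this list and those that follow, 7.32% of all genes rose and 6.53% fell by both criteria. By the adjusted p alone 13.6% were higher and 15.7% lower. *Gnptg* encodes a subunit of the enzyme that makes the mannose 6-phosphate tag and was at 69.2 ± 9.05 RPM in the 6 reaggregates and at 25.9 ± 4.13 RPM in the 4 flat cultures (means and SD, log2 fold change 1.40). *Igf2r*, a receptor for that tag, was at 234 ± 31.1 and 96.3 ± 38.7 RPM (1.37), and *Sort1*, which encodes the sorting receptor sortilin, at 6.36 ± 2.48 and 2.54 ± 1.44 RPM (1.21). In reaggregates 5 and 6 *Sort1* was at 2.71 and 3.71 RPM, below flat culture 2 at 4.41 RPM. Against flat cultures with no source label, 4 of the 10 were higher and 0 lower by the adjusted p alone. The shares of all genes were 6.6% and 11.2%. Against those of the de Bruijn lab 4 were higher and 2 lower, with shares of 25.3% and 21.6%. The 2 were *M6pr* (log2 fold change −0.90) and *Sumf1* (−0.66), named after their values were seen. Among 14 genes tested for relatives of TFEB and for control of mTORC1 at the lysosome, 3 rose and 0 fell, with a median of 0.4, and by the adjusted p alone 6 were higher and 1 lower. The 3 genes were the GTPase gene *Rragd*, at 3.455 ± 0.563 and 0.627 ± 0.319 RPM (log2 fold change 1.84), and *Flcn* and *Fnip1*, whose products form a complex that acts on Rag GTPases, at 119 ± 37.1 and 43.7 ± 15.2 RPM (1.44) and at 170 ± 24.85 and 83.0 ± 11.2 RPM (1.03). Of the 14, 4 were higher and 0 lower by the adjusted p alone against flat cultures with no source label. Against those of the de Bruijn lab 7 were higher and 3 lower, where 25.3% of all genes were higher and 21.6% lower. Of 18 autophagy genes, 1 rose and 0 fell, with a median of 0.24, and 4 were higher and 0 lower by the adjusted p alone. The gene that rose was *Ulk1*, which encodes a kinase that starts autophagy, at 79.9 ± 17.4 and 36.7 ± 12.8 RPM (1.16). Against flat cultures with no source label 4 autophagy genes rose and 0 fell by both criteria, where 3.7% of all genes rose, and against those of the de Bruijn lab 1 rose and 0 fell, where 15.2% of all genes rose. Among 5 cathepsin inhibitors 1 rose and 0 fell by both criteria, 1 was lower by the adjusted p alone, and the median log2 fold change was −0.41. *Cst3* (cystatin C), a secreted inhibitor of cysteine cathepsins, was at 1206 ± 176.5 RPM in reaggregates and 212.5 ± 42.8 RPM in flat cultures (log2 fold change 2.51, adjusted p = 3.15e-05). It was the only inhibitor with a log2 fold change above 0. *Ctla2b* and *Cst6* were chosen after their values were seen. *Ctla2b* was between 2.7 and 5.82 RPM in reaggregates and between 6.16 and 9.24 RPM in flat cultures, without overlap (log2 fold change −0.89, adjusted p = 0.0177). *Cst6* was at 18.6 and 32.6 RPM in flat cultures 2 and 4, listed at 0 in flat cultures 1 and 3, and at most at 0.108 RPM in reaggregates. *Lamtor5* was not analysed here.

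Markers of the cell types that the cultures could hold were examined beside the members. Of 10 stromal markers, 9 were tested, and 6 of them rose and 1 fell by both criteria, where 7.32% of all genes rose and 6.53% fell. The stromal markers summed to between 16640 and 24730 RPM in reaggregates and to 6284, 8978, 13270 and 6453 RPM in flat cultures 1 to 4, with *Col1a2* as the most abundant in reaggregates and in flat cultures 1 and 3, *Cxcl12* in flat cultures 2 (4560 RPM) and 4 (3990 RPM), and *Thy1* at most at 0.359 RPM. Since macrophages are rich in lysosomes, 11 macrophage markers of the table were summed. They reached between 15.3 and 32.4 RPM in reaggregates and 57.1, 14.2, 39.2 and 15.9 RPM in flat cultures. *Lyz2* was the most abundant, *Ptprc*, *Adgre1* and *C1qb* were listed at 0 in every library, and 0 of the 5 tested passed in either direction. *C1qa* and *C1qc* were not analysed here. Of 9 osteoclast markers, 5 were tested and 1, *Mmp9*, rose, with *Dcstamp* listed at 0 in every library and *Acp5* at most at 0.136 RPM. Their sum was between 116.9 and 155.2 RPM in reaggregates and 92.9, 59.9, 117.6 and 40.5 RPM in flat cultures, most of it from *Itgb3*. The 5 endothelial markers summed to at most 1.09 RPM in any library, and *Pecam1*, the most abundant by its mean over all libraries, was the only one tested and did not pass.

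Adipocyte markers moved with the source of flat cultures. Of 8 markers, 0 rose and 3 fell against all flat cultures, where 7.32% of all genes rose and 6.53% fell. They summed to between 262.6 and 692.1 RPM in reaggregates and to 375.2, 1479, 535.3 and 1569 RPM in flat cultures 1 to 4, with *Lpl* as the most abundant in reaggregates and in flat cultures 1 and 3. In flat cultures 2 and 4 *Fabp4* was the most abundant, at 435 and 711 RPM. Against flat cultures 2 and 4 alone, 6 of 8 fell in reaggregates, against flat cultures 1 and 3 alone 0 did, and 5 were higher in flat cultures 2 and 4 than in 1 and 3. Of all genes tested, 10.5%, 6.17% and 1.82% did so. Flat cultures 2 and 4 are those in which *Npc2*, *Manba* and *Cln3* were high and *Tfeb* was low, and the part of adipocyte differentiation in these values was not tested. *Lep* was not analysed here. Among 8 immediate early and stress genes, 5 rose in reaggregates against all flat cultures, 1 against flat cultures 1 and 3 alone and 6 against flat cultures 2 and 4 alone. The shares of all genes that rose were 7.32%, 3.7% and 15.2%. The immediate early and stress genes summed to between 1436 and 2118 RPM in reaggregates and to 442.4, 725.2, 2518 and 784.4 RPM in flat cultures, with *Egr1* as the most abundant by its mean over all libraries, and flat culture 3 stood above all other libraries. The part of immediate early and stress genes, and of the handling that differed between groups, in the higher levels of lysosomal genes was not tested.

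Promoters were searched for CACGTG, which is its own reverse complement, and for the longer TCACGTGA, which contains it. RefSeq promoters (GRCm38.p6, 250 bases before to 50 bases after the start) were found for 38 of the members, as 43 promoters. Of these, 13 held CACGTG (30.2%), against 7.15% of all 32851 promoters of this length, and 5 held TCACGTGA (11.6%), against 0.974%. The promoters used for comparison were not limited to genes tested here and were not matched to the members in level or base composition. A match describes the sequence only and is not a measured binding site. For *Ctsb*, *Ctsh*, *Galns*, *Asah1* and *Npc1* no promoter was matched. CACGTG was held by 7 of the 13 members with a promoter that rose by both criteria and by 6 of the 24 that were tested and did not, and no test of this difference was made. The bases before the start are shown for the 4 members with the largest changes, with CACGTG in capitals, on the plus strand and from 5′ to 3′. They are *Ctsf* (chr19:4854915-4855164), *Gaa* (chr11:119267713-119267962), *Naglu* (chr11:101069844-101070093) and *Neu1* (chr17:34931003-34931252), of which *Neu1* has none.
Ctsf: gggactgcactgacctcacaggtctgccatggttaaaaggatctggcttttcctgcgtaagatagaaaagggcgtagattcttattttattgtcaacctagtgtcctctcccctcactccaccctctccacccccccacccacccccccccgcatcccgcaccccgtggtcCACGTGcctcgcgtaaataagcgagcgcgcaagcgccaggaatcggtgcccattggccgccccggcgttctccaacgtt
Gaa: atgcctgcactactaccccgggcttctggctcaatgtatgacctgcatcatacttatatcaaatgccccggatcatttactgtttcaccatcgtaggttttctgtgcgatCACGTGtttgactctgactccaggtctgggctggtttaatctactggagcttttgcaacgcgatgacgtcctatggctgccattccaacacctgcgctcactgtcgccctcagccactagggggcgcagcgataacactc
Naglu: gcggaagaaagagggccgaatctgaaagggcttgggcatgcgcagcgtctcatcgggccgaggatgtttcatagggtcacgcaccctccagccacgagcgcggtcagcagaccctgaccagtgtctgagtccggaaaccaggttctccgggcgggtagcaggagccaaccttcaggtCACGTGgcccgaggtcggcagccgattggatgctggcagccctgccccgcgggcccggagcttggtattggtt
Neu1: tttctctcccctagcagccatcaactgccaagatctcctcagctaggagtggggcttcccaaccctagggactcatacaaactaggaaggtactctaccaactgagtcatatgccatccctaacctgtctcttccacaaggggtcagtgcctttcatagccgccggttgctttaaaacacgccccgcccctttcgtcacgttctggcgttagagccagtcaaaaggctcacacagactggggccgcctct
In *Ctsf*, *Gaa* and *Naglu* the motif begins 79, 140 and 73 bases before the start.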

How the data were processed

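RNA of OP9 cells was sequenced in 6 reaggregates and 4 flat cultures. The authors deposited RPM values per gene and library, that is reads scaled to a sum of 1000000 over genes, which the submitters' processing notes credit to TopHat 1.2.0, genome NCBIM37/mm9 and GeneProf, with multi-mapped reads divided among genes. The authors deposited a log2 fold change per gene from DESeq, and the authors deposited an adjusted p-value beside it. Neither column was used. Read counts were not used here and no count test was run. Depth was read from the RPM value of 1 read, with a floor of 3 reads.

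Genes above 0.5 RPM in at least 1 library were tested with limma 3.58.1 in R 4.3.3 on log2(RPM + 0.5) with a mean-variance trend, and p-values were adjusted by Benjamini-Hochberg over all 16933 genes. The code was tested on simulated data. Members and lists were chosen with earlier results of these data known. Values are given for members with an adjusted p of at most 0.05 in reaggregates against flat cultures, up to 20 by size of change, for members that passed between flat sources, and for *Tfeb*, *Lamp1*, *Ctsd*, *Ctsk* and *Gusb* whatever their values. From each further list up to 3 genes that passed in each direction were named. Pseudocount, filter, scaling, trend, blocks of replicates and each library were varied. Exon lengths came from Ensembl release 65, whereas the authors used release 58. Tables and figures were made with Python 3.11.15 and matplotlib 3.10.9.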

Additional observations from a re-analysis of the deposited data

Results flagged for a closer look

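Genes *Manba*, *Cln3* and *Npc2* differed between the sources of flat cultures, so that their change in reaggregates differed with the source compared. The log2 fold change of flat cultures of the de Bruijn lab against those with no source label was 2.81 for *Manba*, 2.49 for *Cln3* and 2.31 for *Npc2*, with limma adjusted p of 0.0212, 0.0297 and 0.0411. Each source has 2 libraries, and a difference in passage number between them, which the labels do not give, was not tested. In 0 of 118 groups of values was a single library far from the others by Dixon's criterion, where chance gives about 5.9 (1 in 20) for independent libraries. Reaggregates came as pairs that are alike and flat cultures from different sources, so that a single library would seldom stand apart and this count does not show that none is unusual.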

How the results depend on the processing

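In 80 alternatives over the comparisons, 6 members (*Ctsf*, *Hexa*, *Neu1*, *Naglu*, *Arsa* and *Lamp2*) kept an adjusted p of at most 0.05 in reaggregates against flat cultures in all 23 settings of that comparison. The 14 members higher by both criteria became 9 with consecutive reaggregates averaged, 9 with reaggregates without IL-3 only and 6 with reaggregates with IL-3 only, and the 21 higher by the adjusted p alone became 9, 9 and 6. Over all genes the share that rose by both criteria went from 7.32% to 1.84%, 2.04% and 1.64%. The share higher by the adjusted p alone went from 13.6% to 1.94%, 2.13% and 1.69%. These settings have fewer samples. With each library left out in turn these counts were between 12 and 16 and between 14 and 21. The shares of all genes were then between 4.52% and 12.5% and between 7.49% and 22.1%. The other ranges were 8 to 18 against flat cultures with no source label, 9 to 19 higher and 2 to 3 lower against those of the de Bruijn lab, 0 to 0 between flat sources and 0 to 0 for IL-3. Between flat sources, 3 members became 0 with no filter on low values and 6 with all 3 groups in 1 fit, and the cause was not tested. In comparisons that take the flat sources apart, leaving out a flat culture leaves 1 sample of its source, assumed to vary like the others. A call lost there does not show that a difference is absent. Leaving out libraries singly gave *Ctsd* a log2 fold change between −0.10 and 0.33 and *Gusb* one between −0.09 and 0.42. *Ctsd* reversed to −0.04 without flat culture 1 and −0.10 without flat culture 3, and to −0.03 with the replicate block, in which libraries are paired by a number that shows no pairing in the values. *Gusb* reversed to −0.09 without flat culture 1. The cause was not tested. Values under 0.318 to 0.408 RPM lie within 3 reads.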
